A study of Mus musculus with 16 samples.

Results

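Chromosome 18 of the mouse carries 513 protein-coding genes in the deposited expression table, and 310 of them are described here, out of 12962 protein-coding genes on all chromosomes with the same minimum level. The members are the protein-coding genes of chromosome 18 in mm10 that lie outside the protocadherin clusters (36.9 to 38 Mb), have a mean of 4 or more over the 16 lines of the study, and are not the imprinted gene Impact. The genes were selected on their position and mean rlog value, and the sets of lines on the chromosome 18 level of each line, since 3 clonal lines, MEF1-1, MEF1-4 and MEF1-5, were known from earlier results of these data to be low over the whole chromosome. The contrast of these 3 lines with MEF1-2, MEF1-3, MEF1-6 and MEF1-7 therefore holds the values behind the choice, and it is given as a description without a test. Of the remaining chromosome 18 genes, 67 overlapped the protocadherin window and 135 outside it had a mean below 4, of which 32 were listed at 0 in all lines.

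The study grew mouse embryonic fibroblasts (MEFs) from 2 sibling E13.5 embryos of the C57BL/6J strain, the male MEF-1 and the female MEF-2, and let them immortalise by serial passaging through crisis. From each immortalised parental line (here MEF1p and MEF2p), single cells were sorted by flow cytometry and expanded into 7 clonal lines. Total RNA was depleted of ribosomal RNA and sequenced with 1 library per line, so that the clonal lines are the replicates, each is 1 clone, and the parental lines have none. No line received a drug or an engineered allele, the sex of the embryo cannot be told apart from the other differences between MEF-1 and MEF-2, and the lines were karyotyped only through DNA coverage.

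Gene dosage is the number of copies of a gene that a cell holds. Immortalised fibroblasts often lose or gain whole chromosomes, and a chromosome held in fewer copies is commonly transcribed in proportion to the copies left. Single genes can depart from this when feedback, stress or the regulatory state of a clone sets their level more strongly than the copy number. Mouse chromosome 18 holds, among others, regulators of TGF-beta and Wnt signalling (Smad2, Smad4, Smad7, Apc, Csnk1a1), a ribosomal protein gene (Rps14) and the gene of a collagen cross-linking enzyme (Lox). A published plot of DNA coverage, read by eye and without values, has this chromosome lower in MEF1-1, MEF1-4 and MEF1-5 and intermediate in MEF1p. The authors read the lower coverage as a monosomy of this chromosome in some of the lines, and DNA copies were not measured here.

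The authors deposited regularised log (rlog) values, which are log2 values of size-factor-scaled counts with each line pulled towards the mean of its gene, most strongly for genes with few reads. A difference of low genes is therefore understated, and how many reads stand behind it is unknown. In each line the medians of the autosomes were taken, and their median was set to a common level, so that values are relative to the rest of the genome of that line. The defining markers of fibroblasts were high, with 9 of 10 at a mean of 8 or more (Col1a1, 20.9; Thy1, 4.74, the lowest), and those of other cell types were mostly below 4 (4 of 5 epithelial, 3 of 4 endothelial, 4 of 5 blood and 4 of 4 skeletal muscle markers). Of the exceptions, Cdh1 was at 7.44, and of 4 neural markers Tubb3 was at 11.3 and Map2 at 12.1 while Sox10 was at −1.92. In bulk RNA, fewer cells with a copy and less RNA per cell cannot be told apart.

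Of the 310 members, 258 had a mean of 8 or more and 52 a mean from 4 to below 8. The minimum was passed in every set of lines by all but 7 members, with a mean below 4 in the 3 lines for 6, in the 4 lines for 2 and in the MEF-2 clonal lines for 2. The genes nearest the minimum were Ctxn3 (mean 4.03) and Pcdh1 (4.12) inside, and Cabyr (3.96) and Spink10 (3.95) outside. Their differences between the 3 and the 4 lines were −0.14, −0.97, −0.93 and −1.36.

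The whole chromosome was low in 3 clonal lines of MEF-1 and in no other clonal line. Relative to the mean of the 14 clonal lines, the median over the 310 members was −0.49 in MEF1-1, −0.48 in MEF1-4 and −0.43 in MEF1-5. It was 0.07 in MEF1-2, 0.07 in MEF1-3, 0.13 in MEF1-6 and 0.17 in MEF1-7, and between 0.12 and 0.16 across the 7 clones of MEF-2. The 3 lines did not overlap with the other 11, whereas the 4 MEF-1 lines lay on both sides of the MEF-2 clonal lines. The means were −0.47 ± 0.03 (SD, n = 3), 0.11 ± 0.05 (SD, n = 4) and 0.14 ± 0.01 (SD, n = 7).

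**Figure D1:**
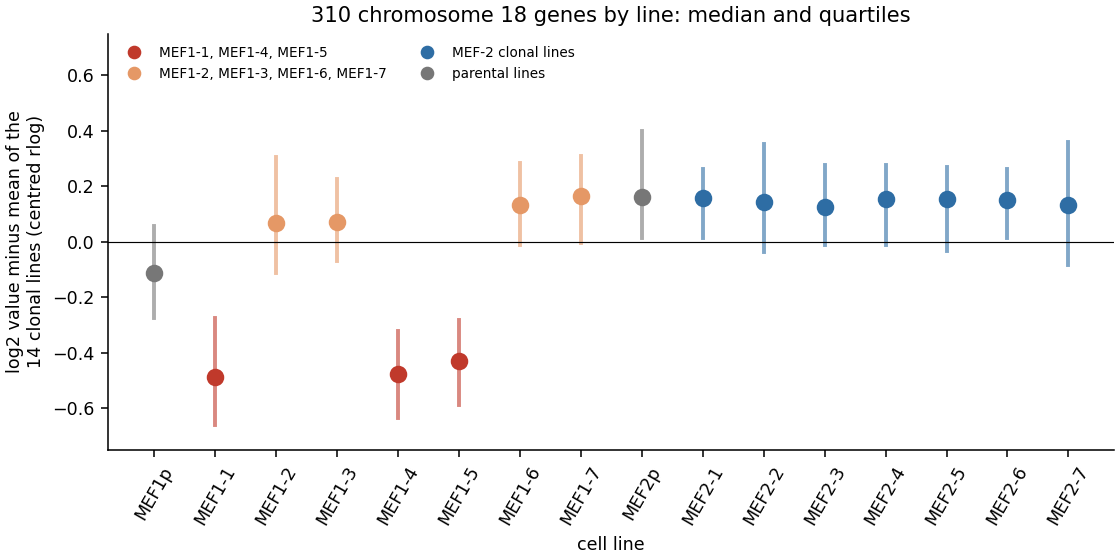
Median (point) and 25th to 75th percentile (bar) over the 310 chromosome 18 genes in each of the 16 lines, as centred log2 (rlog) value relative to the average of the 14 clones (y axis), coloured by set of lines. MEF1-1, MEF1-4 and MEF1-5 lie between −0.49 and −0.43, all other clonal lines between 0.07 and 0.17, and MEF1p at −0.11.

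With all 7 clonal lines of each embryo, the median of chromosome 18 was 0.28 lower in MEF-1 (difference −0.28). The 3 lines had been chosen as low on this same level, so that the difference is given with no test. Leaving them out had to narrow it, and the value of −0.025 without them is likewise given with no test. Chromosomes 12 and 19 differed between MEF-1 and MEF-2 in a different way, with all 7 MEF-1 clonal lines on one side. The difference was −0.64 for chromosome 12 and 0.37 for chromosome 19 (exact permutation test, p = 0.000583 each, the smallest possible), and both were close to this without the 3 lines (−0.64 and 0.37, exact permutation test, p = 0.00303 each, again the smallest possible). Between the 3 and the 4 MEF-1 lines, the medians of the other autosomes differed by no more than −0.10 (chromosome 17) and 0.08 (chromosome 14).

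The parental line MEF1p, from which all 7 clones were taken, stood between the 2 kinds of clone, at −0.11, whereas MEF2p, at 0.16, stood with its clones. Gene by gene, MEF1p was above the mean of the 3 lines by a median of 0.34 and below the mean of the 4 lines (median −0.25), while MEF2p minus its clonal lines had a median of 0.02 (quartiles −0.12 and 0.20). A place apart from its clones was not particular to chromosome 18. On chromosome 12, MEF1p was at −0.05, where the clonal lines had means of −0.31 in MEF-1 and 0.32 in MEF-2. On chromosome 19 it was at 0.11, with clonal means of 0.19 in MEF-1 and −0.19 in MEF-2. Each parental line has 1 library, and no test can be made of its value.

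At the level of single genes, the difference between the mean of the 3 lines and the mean of the 4 lines had a median of −0.58 over the 310 members, with quartiles at −0.70 and −0.47. On a linear scale the 3 lines held a median of 67.1% of the level of the 4 lines. Over the 12158 genes of the other autosomes with the same minimum, the median was 0.01 and the quartiles −0.10 and 0.12. As a reference on the log2 scale, expression in proportion to copies gives −1 for 1 of 2 copies, −0.58 for 2 of 3 copies and −0.42 for 3 of 4 copies. There were 201 members from −0.75 to −0.4, and 13 at −1 or lower. The contrast with the 7 MEF-2 clonal lines gave a median of −0.59, and that of the 4 MEF-1 lines with the MEF-2 lines −0.03. The differences of 2 of the 3 lines from the mean of the 4, a reference they share, had a Pearson's r of 0.573 to 0.778 across the 310 genes. Genes are not replicates, and this is a description.

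**Figure D2:**
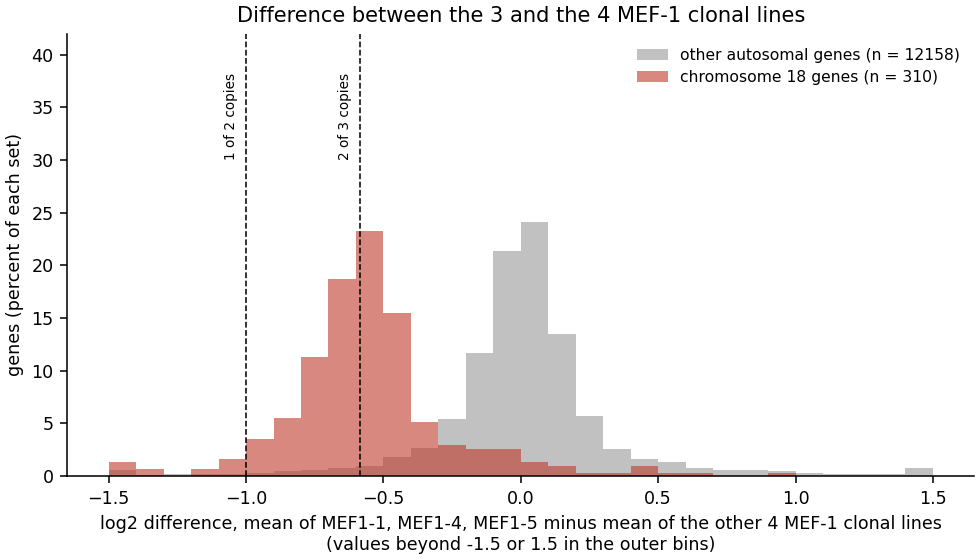
Distribution of the log2 difference between the mean of MEF1-1, MEF1-4 and MEF1-5 and the mean of the other 4 MEF-1 clonal lines (x axis), as percent of genes (y axis), for 310 chromosome 18 genes (red) and 12158 genes of the other autosomes (grey), with the references for 1 of 2 and 2 of 3 copies as dashed lines. Chromosome 18 genes centre on −0.58, other autosomal genes on 0.01.

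A member was taken to follow dosage when all 3 lines were below all 11 other clonal lines. This was so for 189 members (61.0%), where the share over all 12962 genes, chromosome 18 included, was 4.51%, and over the other autosomes 2.84%. A further 49 members were lower in the 3 than in the 4 MEF-1 lines without being below all MEF-2 clonal lines, so that 238 in all separated within MEF-1 (7.98% of all genes). In 72 members the 3 and the 4 lines overlapped, and in no member were the 3 lines above the 4 (0 of 310, where 5.38% of all genes were). A difference of −0.5 or lower was found in 206 members (5.98% of all genes) and a difference from −0.25 to 0.25 in 26 (75% of all genes). These shares describe the contrast by which the lines were chosen and nothing is read from them beyond that. With 3 against 4 lines no exact permutation test of a single gene can go below p = 0.0571.

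With the members divided by mean into 3 groups of like size, from the lowest to the highest, the median difference was −0.57, −0.58 and −0.58, and the share that followed dosage was 34.6%, 71.8% and 76.7%. Among genes with a mean of 8 or more the median difference was −0.58 and 68.6% followed, and among those from 4 to below 8 these were −0.44 and 23.1%. Genes with more than 10 exons in a transcript followed in 73.0% of 137 cases, genes with 2 to 10 exons in 52.4% of 166, and of the 7 genes with 1 exon 2 did. The median SD within the sets of lines was 0.10 for members that followed and 0.37 for members in which the sets overlapped. At a like difference, a small SD keeps the sets apart, so that this contrast follows in part from how the classes were made. The median SD within the 3 lines also fell over the 3 groups of the mean, at 0.23, 0.10 and 0.08. The shares that followed are to be read with this.

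The lower level ran along the whole chromosome. In the 9 windows of 10 Mb with at least 10 members, the median difference was between −0.64 and −0.55, and the share that followed dosage was between 45.5% and 76.2%. Members that did not follow lay among members that did, in all of these windows.

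**Figure D3:**
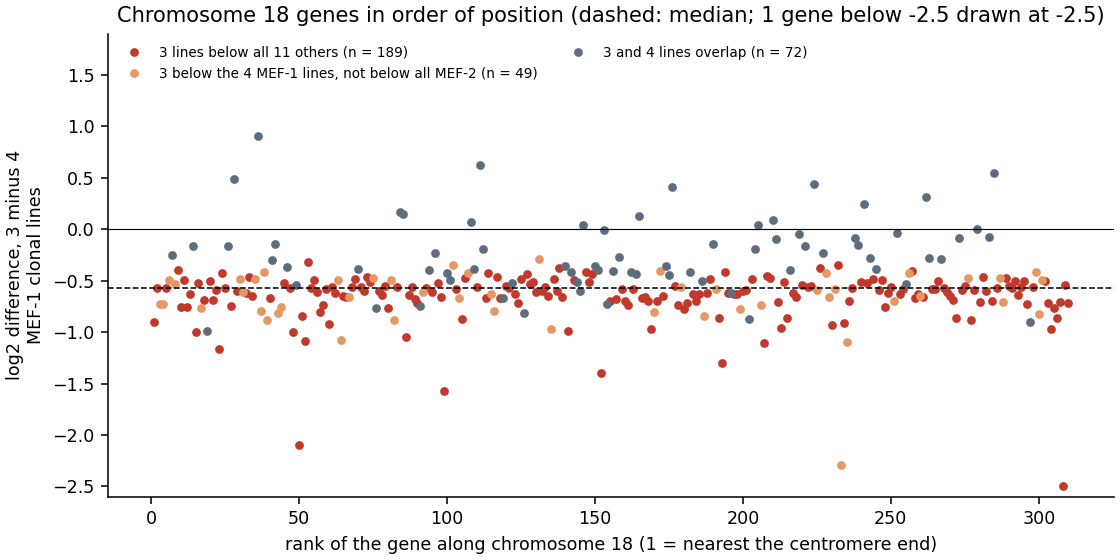
Log2 difference between the mean of MEF1-1, MEF1-4 and MEF1-5 and the mean of the other 4 MEF-1 clonal lines (y axis) for each of the 310 genes in order along the chromosome (x axis, rank by start), coloured by whether the 3 lines were below all 11 other clonal lines (red, 189 genes), below the 4 MEF-1 lines only (orange, 49) or overlapped with them (grey, 72). The dashed line is the median, −0.58, and Dok6, at −4.43, is drawn at −2.5.

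Among the members that followed dosage were genes with housekeeping roles at high levels. Rps14 encodes a protein of the small ribosomal subunit (plus strand of chromosome 18, 60747098 to 60778546), and overlaps Ndst1 on the other strand. It was at 15.14 in MEF1-1, 15.11 in MEF1-4 and 15.28 in MEF1-5, at 15.52, 15.80, 15.85 and 15.92 in MEF1-2, MEF1-3, MEF1-6 and MEF1-7, and between 15.78 and 16.12 (median 15.95) in MEF-2. The 3 lines were lowest without overlap, by 0.60 from the mean of the 4 (difference −0.60), and MEF1p, at 15.28, was at the level of the highest of the 3. Atp5a1, the alpha subunit of the mitochondrial ATP synthase (plus strand, 77773729 to 77782869), was at 14.52, 14.60 and 14.79 in the 3 lines, between 15.11 and 15.35 in the 4 and between 15.40 and 15.58 in MEF-2. Its difference was also −0.60, with MEF1p at 15.03 between both sets of MEF-1 clones.

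Proteins of RNA metabolism showed some of the tightest separations. Matr3, a nuclear matrix protein that binds RNA (plus strand, 35562138 to 35593835), was at 14.10, 14.09 and 14.17 in the 3 lines and at 14.56, 14.60, 14.59 and 14.61 in the 4, while the MEF-2 lines had 14.58 to 14.81. The gap of 0.47 (difference −0.47) stood against SDs of 0.05 and 0.02 within the sets. Matr3 overlaps 2 other expressed annotated genes on the same strand, and reads shared with them were not tested. Elp2, a subunit of the Elongator complex that modifies transfer RNAs, was at 12.01, 12.10 and 12.14 in the 3 lines, from 12.67 to 12.76 in the 4 and from 12.76 to 12.85 in MEF-2, a difference of −0.62. Of 18 members in the list of transcription by RNA polymerase II and RNA processing, 15 followed dosage, and the median difference of the list was −0.57. The exceptions were Taf4b, Pura and Celf4.

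The signalling genes that followed included both positive and negative regulators of a pathway. Smad4, the common partner of the receptor-activated SMAD proteins (minus strand, 73639009 to 73703780), was at 12.54, 12.71 and 12.66 in the 3 lines, at 13.15, 13.31, 13.34 and 13.28 in the 4, and at 13.34 to 13.46 in the MEF-2 lines. Smad2, which carries the TGF-beta signal to Smad4, was at 12.34, 12.27 and 12.22 in the 3 lines, at 12.75 to 12.94 in the 4 and at 12.58 to 12.92 in MEF-2. The differences were −0.63 and −0.59. Of 6 members in the list of TGF-beta and BMP signalling, 5 followed dosage, with a median of −0.66, and the sixth, Bambi, a decoy receptor of this pathway, was lower in the 3 than in the 4 lines but not than in MEF-2.

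In the Wnt pathway, Csnk1a1, the casein kinase that primes beta-catenin for degradation (plus strand, 61555274 to 61590061), was at 13.98, 14.04 and 14.16 in the 3 lines. It was at 14.57, 14.82, 14.85 and 14.81 in the 4 and at 14.87 to 15.03 in MEF-2, without overlap. Ctnna1, the alpha-catenin that ties cadherins to actin, was at nearly the same level in the 3 lines (14.38, 14.37 and 14.34), with 14.80 to 15.07 in the 4 and 15.02 to 15.20 in MEF-2. Their differences were −0.70 and −0.58. Of the 8 members in the list of Wnt signalling and beta-catenin control, 4 followed dosage (median of the list −0.67), while Fzd8, Apcdd1, Tcf4 and Mcc did not. Tcf4 is the helix-loop-helix factor of that symbol and not Tcf7l2, the Wnt effector that shares the name, and without it 4 of 7 followed (median −0.64).

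The cytoskeleton list had 13 members, of which 10 followed dosage, with a median of −0.76. Rock1, the kinase that activates actomyosin contraction downstream of RhoA, was at 12.60, 12.52 and 12.55 in the 3 lines, at 13.08 to 13.33 in the 4 and at 13.24 to 13.41 in MEF-2. Kif5b, the heavy chain of conventional kinesin, was at 13.82, 13.97 and 13.91 in the 3 lines, at 14.26 to 14.53 in the 4 and at 14.54 to 14.92 in MEF-2. Both sets of MEF-1 lines were apart in both genes, with differences of −0.59 and −0.50.

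In 5 further lists the medians ran from −0.61 to −0.56. Ubiquitin, autophagy and vesicle traffic had 16 of 18 members that followed (median −0.61), mitochondrial energy and import 10 of 13 (−0.58), translation, tRNA charging and ribosome biogenesis 10 of 14 (−0.56), chromatin and DNA-binding regulators 12 of 18 (−0.57), and lipid and small-molecule metabolism 11 of 16 (−0.57). Of 12 genes in which the loss of 1 copy is known to have a phenotype in mouse or human, 7 followed (median −0.61), and Tcf4, Setbp1, Pura, Nr3c1 and Gata6 did not. All these shares are to be read beside the 61.0% of all members, and none was tested against it.

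The other 4 lists were not tested against the rest either. Growth factor and receptor signalling had 4 of 12 that followed, immediate-early and stress-inducible genes 3 of 7, matrix, adhesion and cell junction 3 of 8, and cell division and centrosome 8 of 14. Their medians were −0.65, −0.67, −0.79 and −0.49. The median differences of these lists lay on both sides of that of all members. With a mean of 8 or more as the minimum, 2 in place of 4 growth factor and receptor genes followed, from fewer genes. Csf1r, which followed at a mean of 6.23, was among those removed.

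Egr1, an immediate-early transcription factor induced by growth factors, is an example of a gene with a wide spread. It was at 14.76 in MEF1-1, 13.54 in MEF1-4 and 13.48 in MEF1-5, and at 13.27, 15.03, 14.74 and 14.39 in the 4 lines, with MEF-2 lines from 12.45 to 14.36. The sets overlapped fully, and the SDs of 0.72 and 0.77 were larger than the difference of −0.43, which was −0.86 without MEF1-1, and −0.21 without either MEF1-3 or MEF1-5. Hbegf, a ligand of the EGF receptor, was at 11.81, 11.28 and 11.42 in the 3 lines and at 11.34, 12.62, 12.47 and 12.25 in the 4, so that MEF1-2 alone made the sets overlap at a difference of −0.67 (−0.94 without it).

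Some genes of cell division differed among the 3 lines themselves. Kif20a, a kinesin of the dividing cell's midzone, was at 10.43 in MEF1-1, 11.09 in MEF1-4 and 12.00 in MEF1-5, with the 4 lines between 11.23 and 11.96. Cdc25c, a phosphatase that starts mitosis, was at 7.33, 8.17 and 8.90 in these lines, and Ska1, a kinetochore protein, at 6.02, 6.77 and 7.72. The order of the 3 lines was the same in these 3 genes and in Lmnb1, the gene of lamin B1 (10.41 in MEF1-1 and 11.70 in MEF1-5), and MEF1-1 was the lowest of all 14 clonal lines in each. These 4 genes were chosen after their values were seen, and Kif20a overlaps Cdc23 on the other strand. Other genes of the list varied little among the 3 lines, such as Cables1 (SD 0.11) and Seh1l (SD 0.12). Cdc23, a subunit of the anaphase-promoting complex, followed dosage, at 11.95, 12.05 and 12.13 in the 3 lines against 12.59 to 12.70 in the 4 and 12.68 to 12.90 in MEF-2.

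The largest differences were well beyond the rest of the chromosome. Dok6, an adaptor of receptor tyrosine kinases (minus strand, 89292424 to 89769528), was at 3.88, 3.74 and 3.98 in the 3 lines, at 8.71, 8.18, 7.25 and 9.07 in the 4, and at 4.05 to 6.86 with a median of 5.61 in MEF-2. The 4 lines were above all others, and the 3 lines below all others by little, so that the difference of −4.43 is one of high values in the 4 lines as well as of low values in the 3. Asxl3, a Polycomb-associated protein (plus strand, 22344883 to 22530227), was at 7.25, 6.59 and 7.50 in the 3 lines, 9.36, 8.71, 9.40 and 9.36 in the 4, and 10.01 to 10.83 in MEF-2, with a difference of −2.10.

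Reep2, a protein that shapes the endoplasmic reticulum (plus strand, 34840589 to 34847463), was at 4.75, 4.85 and 4.88 in the 3 lines, at 6.96, 6.03, 6.26 and 6.35 in the 4, and at 8.53 to 9.25 in MEF-2. Dpysl3, a microtubule-associated protein of growing neurites and migrating cells (minus strand, 43320984 to 43438286), was at 12.08, 12.25 and 12.44, at 13.98, 13.40, 13.52 and 13.72, and at 14.44 to 15.89. Both genes fell into 3 steps without overlap, with the 3 lines lowest, the 4 MEF-1 lines between and the MEF-2 lines highest, and differences of −1.57 and −1.39. Slc27a6, a fatty acid transporter (−1.30), Greb1l, a transcriptional co-regulator of kidney and inner ear development (−1.17), Csf1r, the receptor of macrophage colony-stimulating factor (−1.11), and Dtna, the cytoskeletal linker alpha-dystrobrevin (−1.08), completed the 8 largest differences among members that followed. Csf1r was at 4.54 to 5.20 in the 3 lines and overlaps Hmgxb3 on the other strand. Ccbe1, a matrix protein of lymphatic growth that was named after its values were seen, had a difference of −2.29, but the 3 lines overlapped with MEF-2 (3.62, 4.20 and 5.34 against 2.91 to 6.40).

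Members lower in the 3 than in the 4 MEF-1 lines, but not than in MEF-2, were mostly higher in the 4 MEF-1 lines than in MEF-2. In 46 of the 49, the mean of the 4 MEF-1 lines was above the mean of the MEF-2 lines, and in 42 each of the 4 lines was above it. For these 49, the median difference of the 4 lines from MEF-2 was 0.42, compared to −0.10 for the members that followed. The class itself favours this, since it asks that the lowest MEF-2 line be no higher than the highest of the 3. These counts and medians are a description of the class. Their median difference between the 3 and the 4 lines, −0.63, was close to the −0.61 of those that followed. Pdgfrb, the beta receptor of platelet-derived growth factor and a marker of mesenchymal cells (plus strand, 61045150 to 61085061), was at 14.58, 14.30 and 14.13 in the 3 lines and at 15.20, 15.12, 14.95 and 15.03 in the 4. With 14.28 to 14.72 in MEF-2, the 3 lines shared the range of the other embryo.

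Tcf4, a helix-loop-helix transcription factor (plus strand, 69343356 to 69689079), was at 14.91, 14.62 and 14.87 in the 3 lines, at 15.45, 15.55, 15.40 and 15.59 in the 4, and at 14.50 to 15.08 in MEF-2. Setbp1, a DNA-binding protein, was at 14.42, 14.12 and 14.02, at 14.53 to 14.74, and at 14.17 to 14.62. In both, the 3 lines and MEF-2 overlapped, while the 3 and the 4 lines did not. B4galt6, the synthase of lactosylceramide, was at 10.89, 10.99 and 11.08 in the 3 lines, at 11.64 to 11.84 in the 4 and at 7.78 to 9.68 in MEF-2. All MEF-1 lines, the 3 included, were above all MEF-2 clonal lines in B4galt6. Its step of −0.75 between the 3 and the 4 lines was beyond the lower quartile of the members (−0.70, median −0.58).

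**Figure D4:**
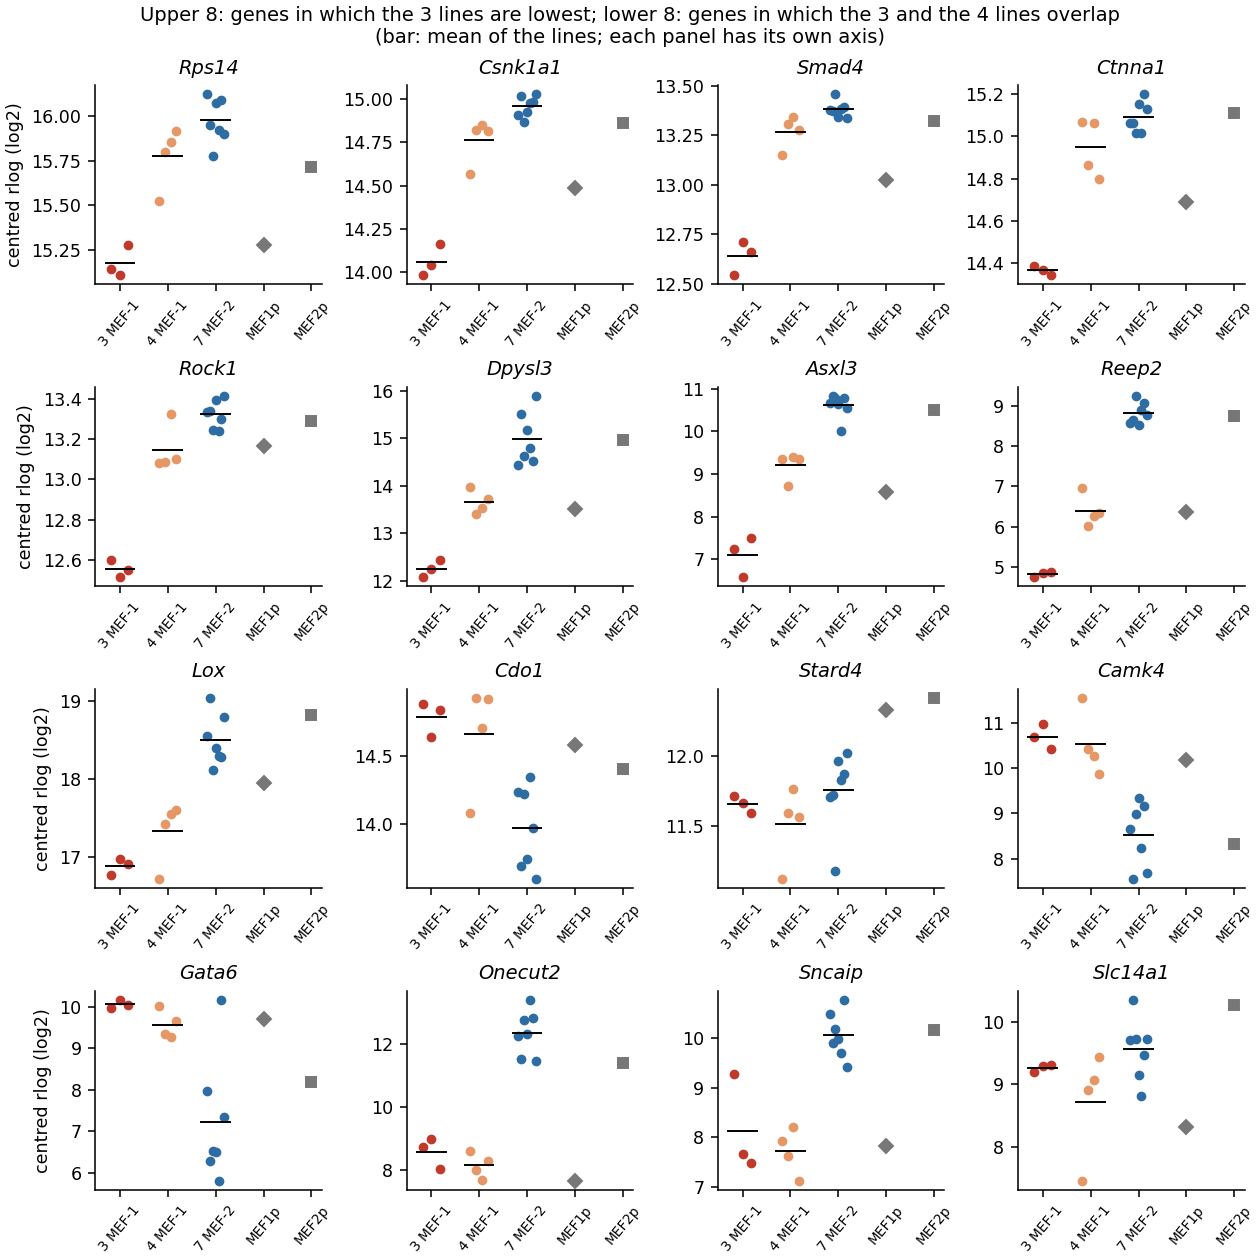
Centred rlog values (log2, y axes differ between panels) of 16 genes in MEF1-1, MEF1-4 and MEF1-5 (red), the other 4 MEF-1 clonal lines (orange), the 7 MEF-2 clonal lines (blue) and the parental lines (grey), 1 point per line, with the mean of each set as a bar. In the upper 8 genes the 3 lines lie below all other clonal lines, and in the lower 8, from Lox to Slc14a1, they overlap with the 4 MEF-1 lines.

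Of the 72 members in which the 3 and the 4 lines overlapped, 15 still had a difference of −0.5 or lower, 24 a difference between −0.5 and −0.25, 26 a difference from −0.25 to 0.25, and 7 a difference above 0.25. The means of 33 of the 72 were below 8. The difference was above 0 in 15 members, 8 of which had a mean of 8 or more.

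Lox, which encodes the lysyl oxidase that cross-links collagen and elastin (minus strand, 52516067 to 52529867), overlapped because of 1 line. It was at 16.77, 16.97 and 16.91 in the 3 lines, and at 16.72 in MEF1-2, 17.43 in MEF1-3, 17.55 in MEF1-6 and 17.61 in MEF1-7. The MEF-2 clonal lines had 18.11 to 19.04. All MEF-1 clones were thus below all MEF-2 clones, and MEF1-2 was at the level of the 3 lines although its chromosome 18 median was not. The difference was −0.44 with and −0.65 without MEF1-2. Etf1, the translation termination factor, overlapped in the same way, as MEF1-2 and MEF1-5 were both at 13.47 and the other 3 of the 4 lines at 13.97 to 14.01.

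Among genes at a mean of 8 or more, some had hardly any difference between the 3 and the 4 lines. Cdo1, the cysteine dioxygenase that starts the breakdown of cysteine to taurine (minus strand, 46713193 to 46728395), was at 14.89, 14.64 and 14.85 in the 3 lines, at 14.08, 14.93, 14.71 and 14.92 in the 4, and at 13.59 to 14.34 in MEF-2. Outside MEF1-2, the MEF-1 clones of both sets lay between 14.64 and 14.93, above all MEF-2 clones, and the difference of 0.13, beside SDs of 0.13 and 0.40, was −0.06 without MEF1-2. Stard4, a carrier of cholesterol within the cell, was at 11.72, 11.67 and 11.59 in the 3 lines and at 11.12, 11.59, 11.77 and 11.57 in the 4, with a difference of 0.15, or 0.01 without MEF1-2.

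Impa2, an inositol monophosphatase, was at 10.16, 10.46 and 10.42 in the 3 lines and at 10.62, 10.54, 10.27 and 10.30 in the 4 (difference −0.08). Kctd1, a repressor of transcription, was at 10.89, 10.98 and 10.91 and at 11.40, 10.88, 11.03 and 10.98 (difference −0.15). In both the sets overlapped, and MEF1-2 was the highest of the 4 lines. In Kctd1 it was above all other MEF-1 clones, and the difference was −0.04 without it. Eif3j2, a subunit of the translation initiation factor eIF3, had a difference of −0.00, with 11.15 to 11.48 in the 3 lines and 11.22 to 11.42 in the 4, but it has a near-identical copy elsewhere in the genome, and its values are uncertain where reads were shared. Sh3rf2, a scaffold of stress kinase signalling, had a difference of 0.04, of either sign when single lines were left out.

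The members with the highest differences at a mean of 8 or more included transcription factors of other tissues. Gata6, a transcription factor of endoderm and heart (plus strand, 11052064 to 11085635), was at 9.96, 10.17 and 10.03 in the 3 lines, at 10.01, 9.34, 9.26 and 9.66 in the 4, and in the MEF-2 lines from 5.81 to 10.15 with a median of 6.52. It was higher in the 3 than in the 4 lines by 0.49, with an overlap only at MEF1-2. Onecut2, a homeobox transcription factor of liver and neurons (plus strand, 64340020 to 64400987), was at 8.73, 8.98 and 8.05 in the 3 lines, at 8.61, 8.01, 7.68 and 8.31 in the 4, and at 11.47 to 13.40 in MEF-2. The sets of MEF-1 lines overlapped, with a difference of 0.44 (0.25 without MEF1-4 and 0.70 without MEF1-5), and the embryos did not.

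Camk4, a calcium/calmodulin-dependent kinase, was at 10.69, 10.99 and 10.43 in the 3 lines, at 11.56, 10.43, 10.27 and 9.88 in the 4 and at 7.55 to 9.35 in MEF-2 (difference between the MEF-1 sets 0.17, which was 0.51 without MEF1-2 and −0.05 without MEF1-7). Sncaip, the alpha-synuclein binding protein synphilin, was at 9.26, 7.67 and 7.48, at 7.13 to 8.21, and at 9.41 to 10.76 (difference 0.41). Here MEF1-1 alone raised the mean, and the difference was −0.16 without it. Slc14a1, a urea transporter, was at 9.19, 9.30 and 9.30 in the 3 lines and at 7.46, 8.91, 9.07 and 9.43 in the 4, so that its difference of 0.55 rested on MEF1-2 (0.13 without it). Lama3, a laminin chain of epithelial basement membranes with a mean below 8 and named after its values were seen, had the highest difference of all members, 0.91, at 9.36, 8.93 and 8.44 against 8.85, 8.36, 8.04 and 6.76.

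The parental line MEF1p can be placed gene by gene between the clones. Of the 189 members that followed dosage, MEF1p was above the 3 and below the 4 lines in 118 (62.4%), at or above the lowest of the 4 in 63, and at or below the highest of the 3 in 8. Its median place was 61.2% of the way from the mean of the 3 to the mean of the 4 lines, with quartiles at 44.8% and 87.6%. MEF1p could also stand outside both sets. Among members that did not follow, Stard4 was at 12.33 in MEF1p and at most 11.77 in the 7 MEF-1 clones, and Lox was at 17.95 in MEF1p. Among members that followed, Nars was at 14.35 in MEF1p and at most 14.26 in the clones. Zeb1, which also followed, was at 13.16 in MEF1p and at least 13.31 in the clones.

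The comparison of all MEF-1 with all MEF-2 clonal lines by limma holds the dosage of the 3 lines as part of the spread within MEF-1. Over all genes it called 30.6% lower and 28.8% higher in MEF-1 (12962 genes, Benjamini-Hochberg adjusted p below 0.05). Of the members, 142 were called lower (45.8%) and 28 higher (9.03%). Without the 3 lines, 88 members were called lower (28.4%, where 27.1% of all genes were) and 73 higher (23.5%, again 27.1% of all genes). The lines left out were chosen as low over these genes, which alone moves the calls in this direction. All 88 were also among the 142, and 27 of the 28 higher members were also higher without the 3 lines. Of the 54 members called lower only with the 3 lines, 45 followed dosage.

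By class, 111 of the members that followed dosage were called lower in MEF-1, 78 were not called and 0 were called higher. Of the 49 members apart in MEF-1 only, 15 were called higher and 2 lower, and of the 72 overlapping members 13 were higher and 29 lower. Since the classes were made from the same lines, these counts are a description.

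The members furthest apart between the embryos were picked by the difference without the 3 lines, which is given with no test. They were picked among members that limma called both with all lines and without the 3. A low adjusted p was thus a condition of being named, and the values of p below add no support. Onecut2 was 4.02 lower in MEF-1 (limma log2 difference −4.02, SE 0.29, adjusted p = 3e-08), and its difference was −4.20 without the 3 lines. Ppp2r2b, a regulatory subunit of protein phosphatase 2A, was at 3.09 to 3.25 in the 3 lines, 3.18 to 4.08 in the 4 and 5.18 to 8.31 in MEF-2. It passed the minimum through MEF-2 alone, and its difference of −3.66 is given with no test. Reep2 and Sema6a, a guidance cue of axons, had −2.41 and −2.34 without the 3 lines.

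In the other direction, Mocos, which activates the molybdenum cofactor of xanthine dehydrogenase, was at 7.02, 6.94 and 6.51 in the 3 lines, at 7.07 to 7.57 in the 4 and at 3.73 to 4.67 in MEF-2. Its difference was 2.90 (SE 0.18, limma adjusted p = 7.93e-09) with and 3.12 without the 3 lines. B4galt6 had 2.60 and 2.93, Gata6 2.55 and 2.34, and Zbtb7c, a zinc finger protein, 2.07 and 2.11. With all lines, the limma adjusted p of these 3 genes was 1.34e-06, 0.000728 and 2.86e-07. In Mocos, B4galt6 and Zbtb7c the clones of the embryos did not overlap, and in Gata6 the highest MEF-2 line reached 10.15.

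**Figure D5:**
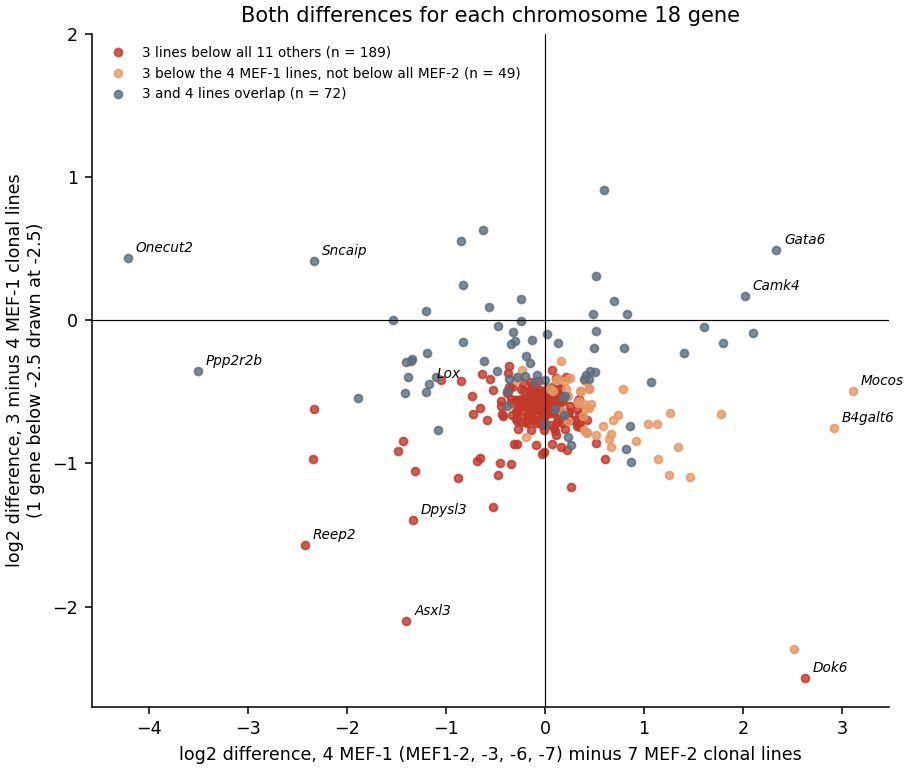
Log2 difference between the 4 MEF-1 lines (MEF1-2, MEF1-3, MEF1-6, MEF1-7) and the 7 MEF-2 clonal lines (x axis) and between MEF1-1, MEF1-4, MEF1-5 and the 4 MEF-1 lines (y axis) for each of the 310 genes, coloured by class as in the plot along the chromosome. Most genes lie near 0 on the x axis (median −0.03) and near −0.58 on the y axis, with Onecut2 and Ppp2r2b at the left, Mocos and B4galt6 at the right, and Dok6 (−4.43) drawn at −2.5.

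In genes that followed dosage, the 3 lines made up part of the difference between the embryos, as their choice entails. With all lines, the limma difference was −0.38 for Smad4, −0.46 for Rps14 and −0.39 for Ctnna1, and without the 3 lines −0.11, −0.19 and −0.13. These values are given with no test, since the 3 lines were chosen as low over this chromosome. Another order was found for Mib1, a ubiquitin ligase of Notch ligands, at 13.82 to 14.03 in the 3 lines, 14.63 to 14.70 in the 4 and 14.25 to 14.40 in MEF-2. The 3 and the 4 lines lay on both sides of MEF-2, with a difference between the embryos of 0.03 with the 3 lines and 0.36 without.

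By list, cell division and centrosome had 11 of 14 members called lower in MEF-1, and 10 without the 3 lines, with 0 called higher in both (background 30.6% and 28.8% lower and higher with all lines). The list of actin, myosin, microtubule and kinesin had 11 of 13 lower, and 6 without the 3 lines, and that of RNA polymerase II and RNA processing 11 of 18, and 2 without. Growth factor and receptor signalling had 2 lower and 3 higher of 12, and 1 lower and 7 higher without the 3 lines. The other lists had between 1 and 8 members called lower and between 0 and 3 called higher with all lines. All lists are made of members, and their counts are to be read beside the members as a whole. Of these, 45.8% were called lower and 9.03% higher with all lines, and 28.4% and 23.5% without the 3. No list was tested against these shares.

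Genes of chromosome 18 that are not protein-coding moved in the same direction. Of 61 with the same minimum mean, the median difference between the 3 and the 4 lines was −0.50 (quartiles −0.63 and −0.34), and 9 followed dosage (14.8%, compared to 1.44% of 2367 such genes on the other autosomes). Only 10 of the 61 had a mean of 8 or more, of which 3 followed. The 51 protein-coding genes inside the protocadherin window with a mean of 4 or more were left out of the members. They were 44 protocadherin genes, which encode adhesion proteins of neurons, with a median of −0.76 in a range from −3.07 to 0.85, of which 23 followed, and 7 other genes with a median of −0.62, of which 4 followed.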

How the data were processed

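Total RNA-sequencing reads of 16 lines were, per the paper's methods and the labels, trimmed with Trim Galore (0.6.0), quantified with Salmon (1.5.2) against mm10 (Ensembl release 102) and transformed with DESeq2 (1.24.0). The authors deposited log2 (rlog) values, 1 per gene and line, without counts, and how transcripts were joined into genes is not given in the sources used here. Depth is therefore unknown, and no interval from counting was made. The number of columns without a sample was 0.

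Of 54453 genes, 54130 were found in GENCODE M21, an annotation of mm10, and 323 were not used. Coordinates are 1-based. Each line was centred on the median of its 19 autosomal medians over protein-coding genes with a 16-line mean of 4 or more. Clones of MEF-1 were compared to those of MEF-2 with limma (trended variance prior, Benjamini-Hochberg over 12962 genes, call below 0.05) and, for chromosome medians, with exact permutation tests, two-sided. The spread between clonal lines is the replicate error, and with 1 immortalised line per embryo it holds no spread between embryos. The tests had been planned with log2 values in mind and were checked on simulated data.

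The members and the gene lists were chosen with earlier results of these data known. Named genes are the 8 most negative differences among members that followed, the 8 highest differences and those closest to 0 among overlapping members with a mean of 8 or more, 4 extremes in each direction between embryos without MEF1-1, MEF1-4 and MEF1-5, genes nearest the minimum, and those of highest mean in each list. Others are given as named later. The extremes between embryos were taken among members that limma called both with all lines and without these 3. Alternatives were the centring, the minimum, the gene set, the limma prior, medians for means, the clone number as a block, parental lines added, and leaving out lines. Clones of the 2 embryos that share a number are different cells. The tools were limma 3.58.1 in R 4.3.3, and scipy 1.17.1, pandas 2.3.3 and numpy 2.4.6 in Python 3.11.15, with matplotlib 3.10.9 for plots.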

Additional observations from a re-analysis of the deposited data

Results flagged for a closer look

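For every named gene, Dixon's test asked whether the top or bottom clone of an embryo lay apart, that is, whether its distance from the next clone made up most of the spread of the 7. Of 130 sets of 7 values, 11 had such a clone. Chance gives about 1 in 20 for values not chosen for it, but some genes were named for a difference between MEF-1 clones that a single clone can make, and the MEF-1 sets hold the step of dosage, so that the 11 cannot be held against that share. In MEF-1, MEF1-2 stood apart in 4 genes. It was lowest in Slc14a1 at 7.46 (nearest line 8.91), Cdo1 at 14.08 (nearest 14.64) and Stard4 at 11.12 (nearest 11.57), and highest in Kctd1 at 11.40 (nearest 11.03). MEF1-7 was highest in Ppp2r2b at 4.08 (nearest 3.49), a low gene in all MEF-1 clones.

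In MEF-2, MEF2-3 was lowest in 4 genes, namely Cdh2, the N-cadherin of mesenchymal cells, at 12.67 (nearest 13.49), Etf1 at 13.86 (nearest 14.24), Eif3j2 at 10.99 (nearest 11.46) and Stard4 at 11.18 (nearest 11.71). MEF2-5 was lowest in Asxl3 at 10.01 (nearest 10.55), and MEF2-4 highest in Npc1, a cholesterol exporter of the lysosome, at 13.48 (nearest 13.31). The chromosome 18 median of none of these lines stood apart from its set.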

How the results depend on the processing

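The median difference of the 310 members between the 3 and the 4 MEF-1 lines kept its size under every centring, minimum and gene set tried, and when single lines were left out (−0.60 to −0.56). Against MEF-2 it ran from −0.61 (without MEF1-5) to −0.57. Members that followed dosage numbered from 187 to 210 without single lines, overlapping members from 53 to 73, and members within 0.25 of 0 from 24 to 31. With a mean of 8 or more, overlapping members were 38 and those within 0.25 of 0 were 14, from fewer genes, and with a mean above 0 the latter were 40, from more genes. The lower median of MEF-1 was −0.33 to −0.22 without single lines, and −0.025 without MEF1-1, MEF1-4 and MEF1-5, which were chosen as low. The limma counts were 119 to 151 lower and 20 to 31 higher without single lines, and 88 lower and 73 higher without the 3. In that fit, 2 named genes changed sign and were called higher, Kdm3b from −0.12 to 0.17 and Map3k2 from −0.03 to 0.25. Both had not been called with all lines. Further named genes changed sign without a call in either fit, such as Greb1l, from −0.23 to 0.27.

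The clone numbers do not pair the lines. Correlations of same-numbered lines ran from −0.15 to 0.23, with 2 of 7 over 0.1, and 1 line correlated best with its own number. With the number as a block, 137 members were lower and 29 higher. Reads per line are unknown and rlog values of low genes are shrunken, which limits what can be said of the 52 members with a mean below 8.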
